A study of Saccharomyces cerevisiae with 23 samples.

Results

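Statin-treated budding yeast (Saccharomyces cerevisiae) that received copper were compared with statin-treated yeast that received zinc. The samples were chosen by their titles: 3 biological samples with a statin and CuSO4 (replicates 1, 2 and 3, on 5 arrays) and 2 with a statin and ZnSO4 (replicates 2 and 3, on 4 arrays), together 5 of the 17 biological samples and 9 of the 23 arrays of the series. Arrays that repeated one biological sample were averaged. Replicate 1 of statin with ZnSO4 was not analysed here.

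The study asks how copper and zinc alter the action of a statin, a drug that blocks HMG-CoA reductase on the way from acetyl-CoA to sterols. All groups were the haploid strain BY4741a carrying pdr5Δ, a deletion of a drug efflux pump gene, grown in SC with 2% glucose and treated in the same medium with 0.25 mM EDTA, a metal chelator, and 0.1% DMSO. The 2 groups compared both held the statin at 5 µg/mL, in the preculture (started at OD600 0.09) and again in the treatment, and both were collected near OD600 0.4. The copper group had 1 mM CuSO4 and the zinc group 2 mM ZnSO4, so that the metal, its concentration and the added sulfate differ together and cannot be told apart. The labels do not name the statin. For reference, the 3 cultures with the statin and no metal are given beside the metal groups, and the groups with CuSO4 or ZnSO4 and no statin (3 samples each, precultures started at OD600 0.01 and collected near 0.8) are used in the last comparison. Nothing in the labels says that replicates came from separate colonies, so p-values measure the spread between cultures. That spread was pooled over the 17 samples of all 6 groups, not taken from the 5 compared samples alone.

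In yeast, excess copper activates the factor Ace1, which turns on the metallothionein genes, and switches off Mac1, which drives the copper uptake genes. Excess zinc switches off Zap1, which drives the zinc uptake genes and its own gene. Iron shortage is read by Aft1 and Aft2, which turn on iron uptake, and sulfur shortage by Met4, which turns on sulfate uptake and reduction.

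Each array set a culture's RNA against one reference that mixed RNA of all 6 conditions, and levels are given as the log2 of that ratio. A difference is copper minus zinc on the log2 scale, with limma's standard error after ±. Genes were called where the p-value of limma, adjusted by Benjamini and Hochberg over the 5606 genes tested, was under 0.05. Among the 9 arrays, 81.6 to 98.6% of the spots were well above background, least on the slide of replicate 3, and duplicate arrays of one sample correlated at r = 0.968 to 0.992 over genes. Of 5 genes listed as deleted in the strain, PDR5 and HIS3 were well above background on 0 of the 9 arrays. LEU2 was above it on 1, URA3 on 2 and MET17 on 6. Signals of these genes were at or below percentile 10.8 of all probes. For dim probes, being above background was thus no proof that the gene was present. For the labelled mating type, the a-cell genes MFA2, STE2, STE6, BAR1 and ASG7 were above background on all 9 arrays, MFA1 on 8 and AGA2 on 6, with STE2 and STE6 reaching percentiles 62.3 and 73.9. Of the alpha-cell genes STE3 and SAG1 were above background on all 9 arrays, MF(ALPHA)1 on 6 and MF(ALPHA)2 on 5. STE3 and SAG1 (up to percentiles 23.6 and 25.3) lay at levels like those of the a-cell genes BAR1 and MFA1 (up to 22.3 and 23.1), so these markers did not separate the mating types on these arrays. The pheromone genes MF(ALPHA)1 and MF(ALPHA)2 stayed at or below percentile 8.11.

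By the header fields available, each replicate number had a slide of its own. Replicates 2 and 3 of both metals thus shared slides, and statin with CuSO4 replicate 1 had no zinc partner. Across all genes, which are not independent replicates, statin with CuSO4 replicate 2 correlated at r = 0.901 with the zinc sample of its slide, and at 0.273 and 0.629 with replicates 1 and 3 of its own group. The other within-group pairs reached 0.763 for statin with CuSO4 replicates 1 and 3 and 0.737 for the zinc samples. Copper replicate 3 correlated at 0.703 with the zinc sample of its own slide, also above its value with copper replicate 2. The library labelled statin with CuSO4 replicate 2 had the lowest correlations within its group, and results are given with and without it and within slides.

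Across the genome, few genes differed between the metals beyond the spread of the cultures. Of 5606 genes, 27 were called (0.482%), 13 higher with copper (0.232%) and 14 lower (0.25%), and 739 had an unadjusted p under 0.05. Leaving out statin with CuSO4 replicate 2, 567 genes were called (10.1%), 220 higher (3.92%) and 347 lower (6.19%), and all of the 27 remained among them with the same direction. Copper then lay on the slides of replicates 1 and 3 and zinc on those of 2 and 3. Metal and slide thus differed in part together, here and wherever that sample is left out below. With the slide block added to that fit, 284 genes were called higher and 395 lower. With the slide as a block and all samples kept, 34 genes were called (0.606%), 13 higher and 21 lower, and 22 of the 27 were kept. When the block was used on replicates 2 and 3 of both metals alone (an alternative chosen after seeing the data), 21 genes were called (0.375%), 9 higher and 12 lower, with 16 of the 27 kept. A fit of the copper and zinc samples alone called 4 genes higher (CUP1-1, CUP1-2, ZRT1 and ZRT2) and 0 lower. The other calls therefore rest on the spread pooled over all 6 groups. The median of all genes tested was 0.01, with 2963 genes above 0 and 2643 below. Counts by sign in the lists below can be read against these values. List counts at an unadjusted p under 0.05 can be read against 739 of 5606 genes.

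The difference between the metals could be read within 2 slides, each with 1 copper and 1 zinc sample. Over all genes its SD was 0.20 on the slide of replicate 2 and 0.33 on that of replicate 3. At least 2-fold higher levels with copper on both slides were seen for 7 genes (0.125%): both CUP1 copies, ZRT1, ZRT2, ZAP1, YHR022C and CTT1. At least 2-fold lower levels on both slides were seen for 2 genes (0.0357%), FRE1 and ARG3. All 27 called genes lay on one side of 0 on both slides, and their copper and zinc samples did not overlap. These genes were called on the same samples, so this is no separate support. Over all genes, the copper samples lay above both zinc samples for 12% and below both for 12.2%. The difference was smaller on the slide of replicate 2 for each of the 27 except CUP1-1, ZRT1, RGS2 and YHR022C.

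**Figure D1:**
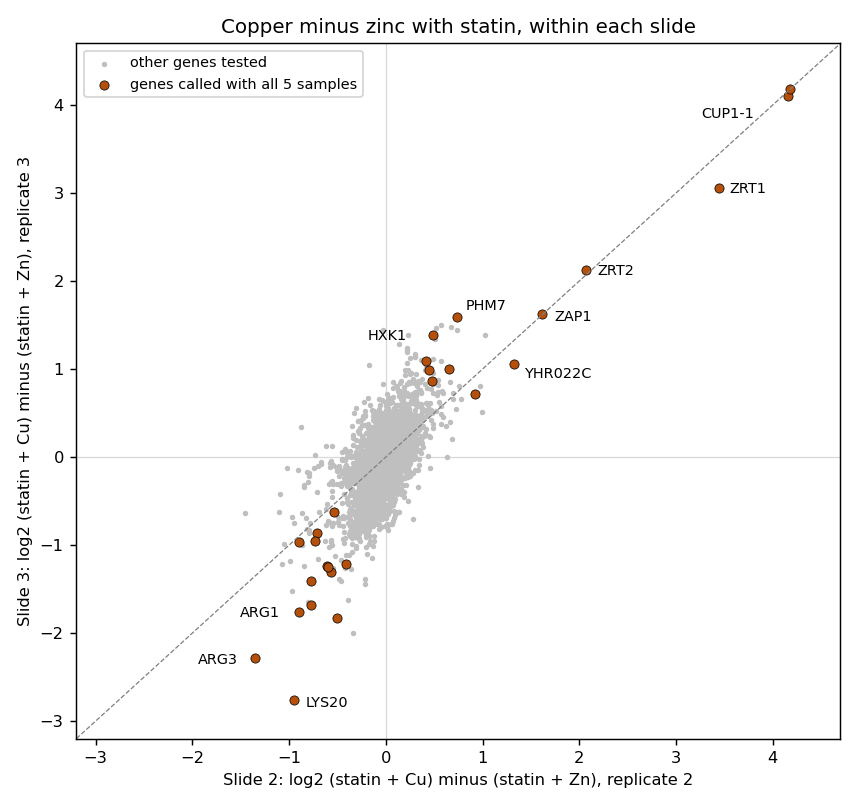
Copper minus zinc with statin within the slide of replicate 2 (x axis, log2) against the same difference within the slide of replicate 3 (y axis, log2), one point per gene tested, with the 27 called genes in orange and a dashed line where both slides are equal. CUP1-1, ZRT1, ZRT2 and ZAP1 lie far from the rest near the dashed line, whereas LYS20 (-0.95 and -2.76) lies away from it.

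The CUP1 copies had the largest difference of all genes tested. CUP1-1, the copper metallothionein that binds and detoxifies copper, had log2 ratios of 1.99, 1.17 and 1.46 in the 3 copper samples and of -2.98 and -2.64 in the zinc samples. All copper samples were far above both zinc samples, which lay near the cultures with the statin alone (-3.45, -3.94 and -3.35). The level was 20.4-fold higher with copper (log2 4.35 ± 0.33, n = 3 and 2, adjusted p = 1.8e-06), and the second copy, CUP1-2, whose near-identical sequence shares the probe signal, was 21.4-fold higher. Within slides the CUP1-1 difference was 4.15 and 4.10.

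The other genes of copper defence were close between the metals or did not pass. CRS5, a second metallothionein-like gene, differed by 0.01 (95% interval -0.27 to 0.30), and CCS1, the copper chaperone that loads superoxide dismutase, by -0.17 (adjusted p = 0.62). SOD1, the copper and zinc superoxide dismutase, had ratios of 0.56, -0.14 and -0.05 with copper and -0.71 and -0.80 with zinc. These groups did not overlap, and the difference of 0.88 (95% interval 0.33 to 1.43) had an adjusted p of 0.16, which became 0.032 without statin with CuSO4 replicate 2 and was 0.36 on the shared slides alone. Of the 5 measured genes of this list, 2 were called higher (0.232% of all genes), with a median of 0.88.

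The copper uptake genes lay lower with copper than with zinc, mostly short of the threshold. All 7 measured genes of the list were on the lower side, with a median of -0.87, and 1 was called (0.25% of all genes). FRE1, the surface reductase that prepares copper and iron for uptake, had ratios of -2.61, -2.52 and -2.49 with copper, -1.44 and -1.28 with zinc, and 1.29, 0.75 and 1.24 with the statin alone. The copper samples were tightly grouped below both zinc samples, and the statin cultures were above both metals. The difference of -1.18 (95% interval -1.72 to -0.64) had an adjusted p of 0.060, and of 0.016 without statin with CuSO4 replicate 2.

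CTR1, the high-affinity copper transporter of the plasma membrane, had a like order, with -2.92, -2.54 and -2.58 with copper, -1.84 and -1.41 with zinc, and 1.42, 0.75 and 1.23 with the statin alone. The difference of -1.05 (95% interval -1.66 to -0.45) had an adjusted p of 0.12, and of 0.033 without statin with CuSO4 replicate 2. Set against the shared statin cultures, CTR1 differed by -3.81 with copper and -2.76 with zinc, and FRE1 by -3.64 and -2.46. These contrasts use the same 3 statin samples and are given side by side only.

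IRC7, a carbon-sulfur lyase gene of the list, was the called member. Its ratios were -0.37, -0.07 and -0.50 with copper and 0.66 and 0.45 with zinc, without overlap, and it was 1.82-fold lower with copper (-0.87 ± 0.17, adjusted p = 0.031, and 0.068 on the shared slides alone). Against the cultures with the statin alone (-0.72, -0.78 and -0.62) it was higher with zinc by 1.26, whereas the copper difference of 0.39 had an adjusted p of 0.089. REE1, a gene of the list with a role in the control of enolase, differed by -0.94 ± 0.29 (adjusted p = 0.18, 0.040 with the slide as a block). FRE7, a further reductase gene, differed by -0.71 (adjusted p = 0.39) and was above background on 4 of 5 copper and 2 of 4 zinc arrays. CTR3, the second high-affinity transporter, differed by -0.03 (2 of 4 zinc arrays above background), and CTR2, which moves copper out of the vacuole, by -0.04.

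The zinc uptake genes were the clearest group beside CUP1. ZRT1, the high-affinity zinc transporter, had ratios of -0.95, -0.23 and -0.33 with copper, -3.67 and -3.39 with zinc, and 0.33, 0.49 and 0.61 with the statin alone. The zinc samples were lowest, and the copper samples lay between them and the statin cultures. ZRT1 was 8.15-fold higher with copper than with zinc (3.03 ± 0.18, adjusted p = 2.3e-07), with 3.44 and 3.06 within slides.

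ZRT2, the low-affinity zinc transporter, had ratios of 0.44, 0.53 and 0.51 with copper and -1.55 and -1.62 with zinc. The values within each group were nearly equal, and the level was 4.21-fold higher with copper (2.07 ± 0.18, adjusted p = 8.2e-06). ZAP1, the zinc-sensing transcription factor that activates its own gene, had ratios of 0.00, 0.44 and 0.49 with copper and -1.18 and -1.14 with zinc. It was 2.76-fold higher with copper (1.47 ± 0.21, adjusted p = 0.0048).

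Each metal can also be set against the shared statin cultures. ZRT1 differed from them by -4.0 with zinc and by -0.98 with copper, and both values were called. ZRT2 differed by -2.55 with zinc, and the copper value of -0.47 had an adjusted p of 0.055. ZAP1 differed by -1.35 with zinc and 0.11 with copper.

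Most Zap1 targets did not pass the test between the metals. Of 17 genes on the zinc list, 15 were tested, 3 were called higher (0.232% of all genes) and the median was 0.18. ZRT3, which releases zinc from the vacuole, had ratios of -0.58, -0.71 and -0.55 with copper and -1.25 and -1.17 with zinc. The groups did not overlap, and the difference of 0.60 (95% interval 0.30 to 0.90) had an adjusted p of 0.087, with 0.011 under the slide block, 0.018 without statin with CuSO4 replicate 2 and 0.030 on the shared slides alone. ZRC1, which stores zinc in the vacuole, differed by 0.09, and ADH4, an alcohol dehydrogenase induced by zinc shortage, by 0.02 (95% interval -0.28 to 0.33).

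ZPS1, a zinc-regulated cell surface protein gene, had ratios of -2.54, -2.04 and -2.24 with copper and -2.47 and -2.25 with zinc. These overlapped and lay below the statin cultures (-0.94, -1.04 and -0.89), and the difference was 0.09 (95% interval -0.38 to 0.56). FET4, a low-affinity transporter of iron and other metals, differed by -0.46 (adjusted p = 0.31), MCD4, an enzyme of anchor lipid synthesis, by 0.58 (adjusted p = 0.62) and ATG41, an autophagy gene, by 0.15.

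**Figure D2:**
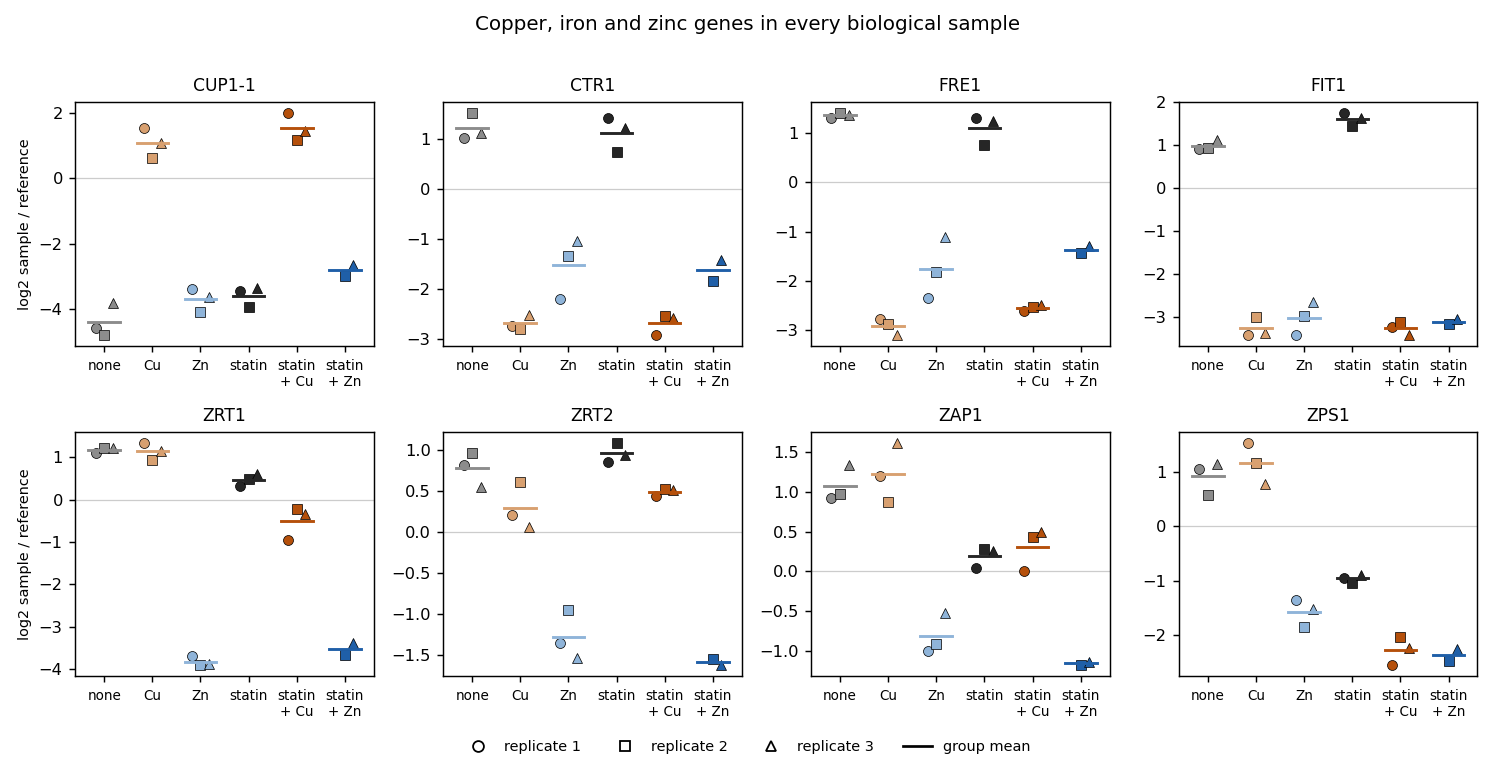
Log2 ratio of sample over pooled reference (y axis) of CUP1-1, CTR1, FRE1, FIT1, ZRT1, ZRT2, ZAP1 and ZPS1 in all 6 groups (x axis), one marker per biological sample with the marker shape giving the replicate number, and a line at each group mean. CUP1-1 is high in the copper samples alone, ZRT1, ZRT2 and ZAP1 are lowest with zinc in both the statin and the no-statin groups, and ZPS1 is at one low level with either metal when the statin is present.

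None of the iron uptake genes was called between the metals. FIT1, a cell wall mannoprotein that retains iron-loaded siderophores, had ratios of -3.24, -3.11 and -3.41 with copper, -3.17 and -3.06 with zinc, and 1.75, 1.46 and 1.63 with the statin alone. The metal groups overlapped far below the statin cultures, and the difference was -0.14 (95% interval -0.54 to 0.26). The values against the shared statin cultures were -4.86 with copper and -4.72 with zinc. FIT3 differed by 0.12, and FIT2 by -0.62 (adjusted p = 0.44, with 3 of 4 zinc arrays above background).

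The siderophore transporters lay on the lower side with copper, with a wide spread between the zinc samples. Of 7 genes on the siderophore list 0 were called by limma, 3 had an unadjusted p under 0.05 and the median was -0.62, which became -0.22 without zinc replicate 2 and -0.96 without zinc replicate 3. ENB1, the enterobactin transporter, had ratios of -3.29, -3.08 and -3.69 with copper and -2.22 and -2.69 with zinc. The difference of -0.90 ± 0.21 had an adjusted p of 0.082, with 0.038 under the slide block and 0.0098 without statin with CuSO4 replicate 2. SIT1, the ferrioxamine transporter, had -2.55, -2.32 and -2.67 with copper and -0.86 and -2.03 with zinc, with a difference of -1.06 ± 0.26 (adjusted p = 0.10). The pair of zinc samples differed from each other more than zinc replicate 3 differed from copper. ARN1 and ARN2, further siderophore transporters, differed by -0.32 and -0.65 (adjusted p = 0.21 for ARN2).

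The genes of reductive iron uptake, which carries iron in through a ferroxidase and a permease, were close. FET3, the copper-dependent ferroxidase, differed by 0.23 (95% interval -0.20 to 0.66), its partner permease FTR1 by 0.13 and FRE5, a reductase gene, by -0.35. Of 10 tested genes of that list 0 were called and 0 had an unadjusted p under 0.05, with a median of -0.04. CCC1, which stores iron in the vacuole, differed by 0.13. The lists of intracellular iron handling (0 of 8 called by limma, 1 at an unadjusted p under 0.05, median -0.18), iron-sulfur cluster assembly (0 of 19, 2 at that level, median -0.06) and heme synthesis (0 of 8, 0 at that level, median -0.02) had no called gene. Copper lay below both zinc samples for 4 of the 8 genes of intracellular iron handling and for 7 of the 19 iron-sulfur assembly genes, against 12.2% of all genes. The intracellular iron median was -0.31 and -0.18 within slides.

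Genes of arginine and lysine synthesis made up 6 of the 14 called genes that were lower with copper. Of the 8 arginine genes, 3 were called lower (0.25% of all genes), all 8 had their 3 copper samples below both zinc samples (12.2% of all genes), and the median was -1.02. ARG3, ornithine carbamoyltransferase, had ratios of -1.97, -1.28 and -2.34 with copper, 0.07 and -0.05 with zinc, and -2.97, -3.39 and -3.17 with the statin alone. The zinc samples were highest, and the copper samples lay between them and the statin cultures. ARG3 was 3.66-fold lower with copper (-1.87 ± 0.30, adjusted p = 0.0096), with -1.35 and -2.29 within slides.

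ARG1, argininosuccinate synthetase, had ratios of -2.39, -1.07 and -2.16 with copper, -0.17 and -0.40 with zinc and -4.18, -4.0 and -4.16 with the statin alone. Copper replicate 2 was the copper sample nearest to zinc, and the level was 3.00-fold lower with copper (-1.58 ± 0.33, adjusted p = 0.049). ARG56, which carries out the acetylglutamate kinase and reductase steps, had ratios of -1.51, -1.05 and -1.42 with copper and -0.27 and -0.01 with zinc, and was 2.27-fold lower (-1.18 ± 0.18, adjusted p = 0.0061). On the shared slides alone these 3 genes kept their calls (adjusted p = 0.0086 for ARG3, 0.028 for ARG1 and 0.018 for ARG56).

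The remaining arginine genes did not pass. Among them ARG8, acetylornithine aminotransferase, differed by -1.13 (adjusted p = 0.082) and ARG4, argininosuccinate lyase, by -0.70 (adjusted p = 0.22). CPA1, the small subunit of carbamoyl phosphate synthetase, and ARG7, which makes ornithine, differed by -0.50 and -0.53. With copper replicate 2 left out, 6 of the 8 were called lower, against 6.19% of all genes.

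Lysine synthesis genes were lower with copper as well, with a larger gap on the slide of replicate 3. LYS20, a homocitrate synthase that takes the first step of the pathway, had ratios of -2.81, -2.36 and -3.33 with copper, -1.42 and -0.57 with zinc and -1.63, -2.47 and -2.20 with the statin alone. The copper samples lay below both zinc samples, while copper replicate 2 lay within the range of the statin cultures. LYS20 was 3.58-fold lower with copper (-1.84 ± 0.29, adjusted p = 0.0094), with -0.95 and -2.76 within slides. Against the shared statin cultures it was higher by 1.1 with zinc (adjusted p = 0.013), and the copper value of -0.74 had an adjusted p of 0.063.

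LYS1, a saccharopine dehydrogenase that completes lysine, had ratios of -1.24, -1.12 and -1.25 with copper and -0.56 and 0.06 with zinc, and was 1.93-fold lower (-0.95 ± 0.19, adjusted p = 0.034). LYS21, the other homocitrate synthase, had -1.37, -1.12 and -1.48 with copper and -0.71 and -0.27 with zinc, and was 1.78-fold lower (-0.83 ± 0.17, adjusted p = 0.049). The copper samples were closely grouped, and zinc replicate 2 was the zinc sample nearer to them. On the shared slides alone the adjusted p was 0.044 for LYS20, 0.12 for LYS1 and 0.16 for LYS21, and with the slide as a block LYS21 had 0.054.

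The other lysine genes LYS2, LYS4, LYS9 and LYS12, which encode aminoadipate reductase, homoaconitase, a saccharopine dehydrogenase and homoisocitrate dehydrogenase, differed by -0.73, -1.04, -1.12 and -0.95 (adjusted p = 0.097, 0.12, 0.14 and 0.14). All 7 lysine genes had their copper samples below both zinc samples (12.2% of all genes), 3 were called lower (0.25% of all genes), and the list median was -0.95. With copper replicate 2 left out all 7 were called lower, against 6.19% of all genes. Within slides the median was -0.41 for replicate 2 and -1.39 for replicate 3.

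Genes of mitochondrial and carbon metabolism were also among the called genes. MAE1, the mitochondrial malic enzyme, had ratios of -1.10, -0.14 and -0.60 with copper, 0.63 and 1.09 with zinc and -0.93, -0.51 and -0.71 with the statin alone. The copper samples spanned the level of the statin cultures and the zinc samples were above all of them. MAE1 was 2.77-fold lower with copper than with zinc (-1.47 ± 0.27, adjusted p = 0.020).

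CIT2, the peroxisomal citrate synthase, had ratios of -0.49, -0.53 and -0.51 with copper, 0.36 and 0.45 with zinc and -0.82, -0.52 and -0.53 with the statin alone. Both metal groups were nearly constant, and CIT2 was 1.89-fold lower with copper (-0.92 ± 0.16, adjusted p = 0.020), with -0.90 and -0.96 within slides.

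YMC2, a carrier of the mitochondrial inner membrane, was 2.16-fold lower with copper (-1.11 ± 0.21, adjusted p = 0.030), with ratios of -0.99, -0.05 and -0.80 against 0.55 and 0.45. AQR1, a plasma membrane exporter of amino acids and acids, had ratios of -1.18, -0.95 and -0.94 with copper, -0.24 and -0.08 with zinc and 0.10, -0.34 and 0.03 with the statin alone. The zinc samples lay within the range of the statin cultures and the copper samples below it, 1.82-fold lower than zinc (-0.86 ± 0.15, adjusted p = 0.017). PDR12, an efflux pump for weak organic acids, was 2.13-fold lower (-1.09 ± 0.20, adjusted p = 0.020, and 0.069 on the shared slides alone). The last called gene on this side was PUS1, a tRNA pseudouridine synthase, which was named after its values were seen and was 1.69-fold lower (-0.76 ± 0.16, adjusted p = 0.046).

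Genes of carbohydrate storage and sugar metabolism were among those higher with copper. UGP1, which makes UDP-glucose for glycogen and trehalose, had ratios of 0.12, -0.33 and -0.10 with copper, -0.81 and -0.96 with zinc and -0.21, -0.14 and -0.38 with the statin alone. The copper samples overlapped the statin cultures, and the zinc samples were below both. UGP1 was 1.72-fold higher with copper (0.78 ± 0.13, adjusted p = 0.017, and 0.047 on the shared slides alone).

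GLC3, the glycogen branching enzyme, had ratios of 0.16, -0.75 and -0.23 with copper and -1.19 and -1.22 with zinc, and was 1.91-fold higher (0.93 ± 0.19, adjusted p = 0.049). HXK1, a hexokinase induced when glucose runs low, had ratios of 0.67, -0.59 and 0.39 with copper and -1.08 and -1.0 with zinc, and was 2.28-fold higher (1.19 ± 0.24, adjusted p = 0.043). In both genes copper replicate 2 was the copper sample nearest to zinc. The adjusted p was 0.074 and 0.054 with the slide as a block, and 0.16 and 0.11 on the shared slides alone.

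All 14 genes of glycogen and trehalose metabolism had positive differences, 2 were called higher (0.232% of all genes) and the median was 0.58. PGM2, phosphoglucomutase, differed by 1.01 (adjusted p = 0.13), GPH1, glycogen phosphorylase, by 0.87 (adjusted p = 0.26), and the trehalose synthase subunits TPS2 and TSL1 by 0.70 and 0.75 (adjusted p = 0.082 and 0.095). With copper replicate 2 left out, 9 of the 14 were called higher, against 3.92% of all genes. The within-slide medians were 0.21 for replicate 2 and 0.72 for replicate 3.

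Further called genes higher with copper were GPD1, TOS8, RGS2, PHM7 and YHR022C. GPD1, the first enzyme of glycerol synthesis, had ratios of 0.36, 0.15 and 0.37 with copper and -0.27 and -0.72 with zinc, and was 1.72-fold higher (0.79 ± 0.14, adjusted p = 0.020). RGS2, a negative regulator of glucose signalling through a G protein, had ratios of 0.73, 0.15 and 0.47 against -0.78 and -0.24, and was 1.94-fold higher (0.96 ± 0.17, adjusted p = 0.020). TOS8, a homeodomain protein gene, was 2.02-fold higher (1.02 ± 0.18, adjusted p = 0.020).

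PHM7, a membrane protein gene, had ratios of 0.36, -0.55 and 0.11 with copper, -1.28 and -1.48 with zinc and 1.5, 0.80 and 0.99 with the statin alone. Both metal groups lay below the statin cultures, and copper was 2.56-fold above zinc (1.35 ± 0.23, adjusted p = 0.016). YHR022C was 2.21-fold higher (1.14 ± 0.22, adjusted p = 0.034), and 2 of 4 zinc arrays had it above background. On the shared slides alone RGS2 kept its call (adjusted p = 0.0056), and GPD1, TOS8, PHM7 and YHR022C had adjusted p values of 0.094, 0.069, 0.052 and 0.12. YHR022C lost its call with the slide as a block as well (adjusted p = 0.061).

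**Figure D3:**
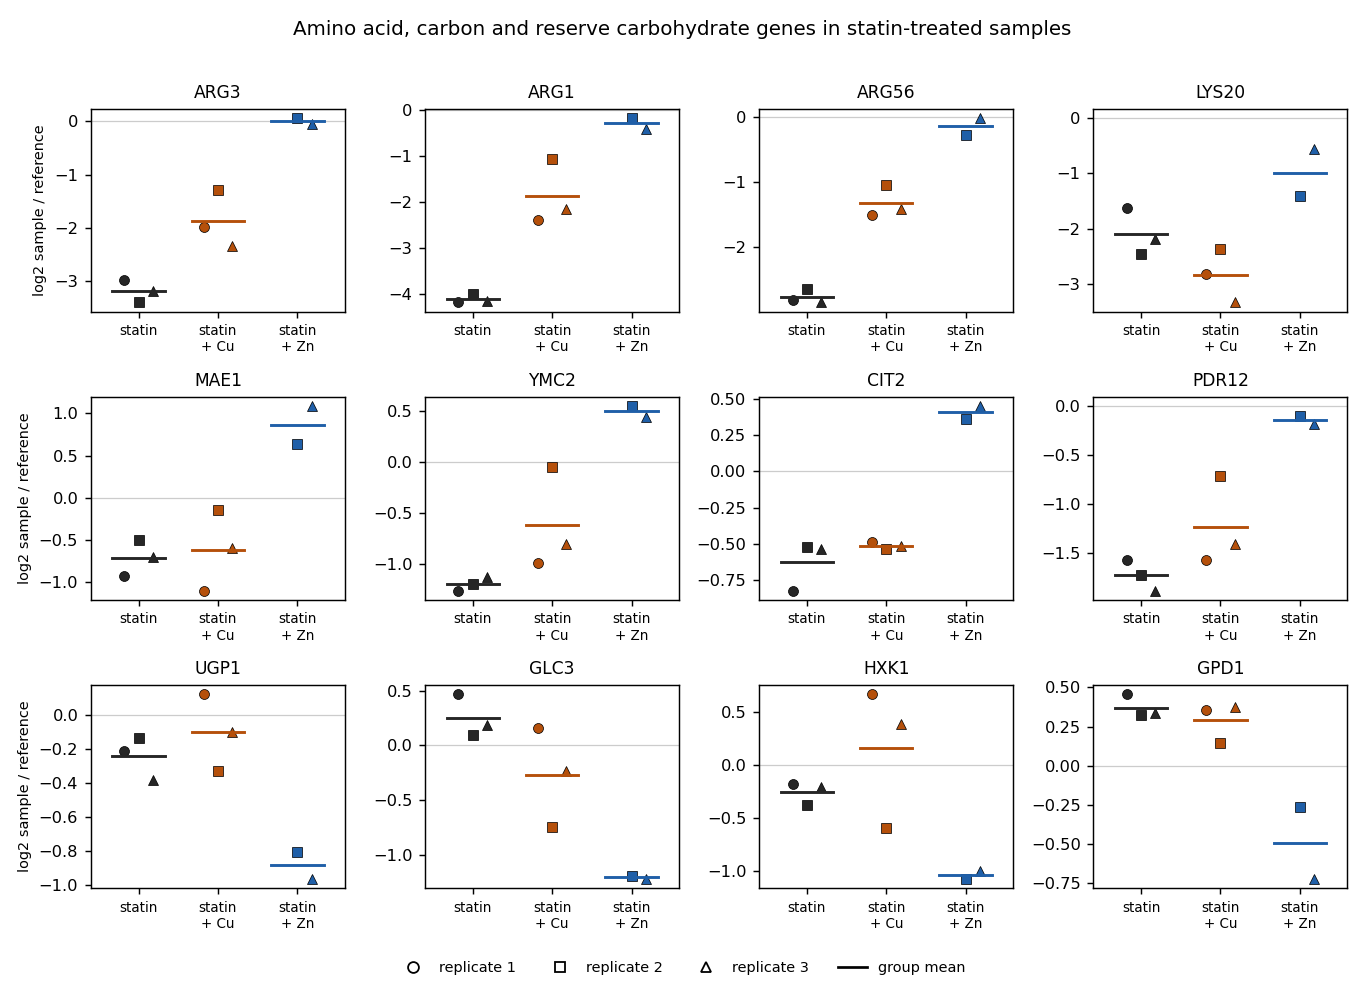
Log2 ratio of sample over pooled reference (y axis) of 12 called genes (ARG3, ARG1, ARG56, LYS20, MAE1, YMC2, CIT2, PDR12, UGP1, GLC3, HXK1 and GPD1) in the groups statin, statin with CuSO4 and statin with ZnSO4 (x axis), one marker per biological sample with its shape giving the replicate number, and a line at each group mean. In the first 8 genes the copper samples lie below both zinc samples and in the last 4 above them, and copper replicate 2 is often the copper sample nearest to zinc.

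No gene of the stress lists was called between the metals. CTT1, the cytosolic catalase, had ratios of 1.37, 0.13 and 0.83 with copper, -0.90 and -0.55 with zinc and -2.11, -2.97 and -3.0 with the statin alone. The metal groups did not overlap and both lay above the statin cultures, and the difference of 1.5 ± 0.35 (95% interval 0.75 to 2.25) had an adjusted p of 0.082, with 0.0050 without statin with CuSO4 replicate 2. HSP104, the protein disaggregase, differed by 0.55 (adjusted p = 0.24), and HSP26, a small heat shock protein, by 0.93 (adjusted p = 0.39).

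As lists, oxidative stress had 0 of 16 genes called by limma (6 at an unadjusted p under 0.05, median 0.39), with 2 genes below 0. Heat shock had 0 of 23 called (3 at that level, median 0.31), with 3 genes below 0. The oxidative stress median was 0.18 without copper replicate 1, and the heat shock median was 0.11 without zinc replicate 2. The respiratory chain had 0 of 22 called (8 at that level, median 0.34), and 21 of its genes lay above 0. SDH2, a succinate dehydrogenase subunit, differed by 0.56 (adjusted p = 0.20). Without statin with CuSO4 replicate 2, 5, 3 and 3 genes of these lists were called higher, against 3.92% of all genes.

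Sulfate assimilation genes differed more between replicates of one metal than between metals. The median log2 ratio over the 10 genes was 0.21, -2.96 and -0.13 in the copper samples, -2.35 and -0.04 in the zinc samples and -4.22, -4.43 and -4.42 with the statin alone. Replicate 2 was low and replicate 3 high in both metals, and the groups overlapped. MET3, ATP sulfurylase, had ratios of -0.01, -4.38 and -0.37 with copper and -3.76 and -0.49 with zinc, so that its difference of 0.54 had a 95% interval from -1.78 to 2.87. SUL1, a sulfate permease, had ratios of -0.15, -5.33 and -1.85 with copper and -5.33 and -1.42 with zinc, and SUL2, the other permease, had 0.56, -3.58 and 0.19 with copper and -2.84 and 0.17 with zinc.

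Of the 10 genes 0 were called by limma and 0 had an unadjusted p under 0.05, with a median of 0.19 and within-slide medians of -0.59 and -0.13. When the slides were matched the median was -0.37, with 10 of 10 genes below 0, and without statin with CuSO4 replicate 2 it was 1.28. The median was -1.0 without zinc replicate 2 and 1.49 without zinc replicate 3, so the direction of this list turned with the sample set. YCT1, a cysteine transporter, PDC6, a minor pyruvate decarboxylase induced by low sulfur, JLP1, a sulfonate dioxygenase, SEO1, a permease, and AGP3, an amino acid permease, differed by 1.18, 1.73, 1.42, 1.22 and 1.13. They were called without statin with CuSO4 replicate 2 (adjusted p = 0.030, 0.045, 0.043, 0.031 and 0.030). Within the slides of replicates 2 and 3, YCT1 differed by 0.05 and 0.17 and AGP3 by 0.14 and 0.27. PDC6 differed there by -0.07 and 0.43, JLP1 by -0.29 and 0.41 and SEO1 by -0.09 and 0.29. The list of methionine and cysteine genes had 0 of 16 called (0 at an unadjusted p under 0.05, median 0.42), with MUP1, the methionine permease, at 0.89 (adjusted p = 0.42) and SAM1, an S-adenosylmethionine synthetase, at -0.10. Its median turned to -0.34 without zinc replicate 2 and was 1.22 without zinc replicate 3, and within slides it was -0.14 and 0.15.

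Ribosomal protein genes lay slightly lower with copper, at a size that depended on replicate 2. The median log2 ratio over 137 genes was -0.52, 0.33 and -0.40 in the copper samples and 0.41 and 0.06 in the zinc samples, so that copper replicate 2 lay between the zinc samples. The median difference was -0.41 with 136 genes below 0, and 0 were called by limma (26 at an unadjusted p under 0.05). It was -0.06 within the slide of replicate 2 and -0.46 within that of replicate 3. In the absence of copper replicate 2 the median was -0.67 and 49 of the 137 genes were called lower, against 6.19% of all genes. RPL24A, a large-subunit protein, differed by -0.35 (adjusted p = 0.58), and RPS26B, RPL9A and RPL14A by -0.79, -0.74 and -0.54.

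Ribosome biogenesis genes had a like pattern. All 34 lay below 0 (2643 of all 5606 genes), with a median of -0.62, and 0 were called. At an unadjusted p under 0.05 there were 32, against 739 of all 5606 genes. The list median was -0.40, 0.40 and -0.07 in the copper samples and 0.55 in both zinc samples. NSR1, a nucleolar protein of pre-rRNA processing, had ratios of -0.93, 0.54 and -0.14 with copper and 0.96 and 1.12 with zinc, without overlap, and its difference of -1.22 (95% interval -1.83 to -0.61) had an adjusted p of 0.082. Without statin with CuSO4 replicate 2, 29 of the 34 were called lower (6.19% of all genes), NSR1 among them (-1.58, adjusted p = 0.0014). The amino acid permease genes GNP1 and TAT1 differed by -1.38 (adjusted p = 0.36) and -0.55.

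**Figure D4:**
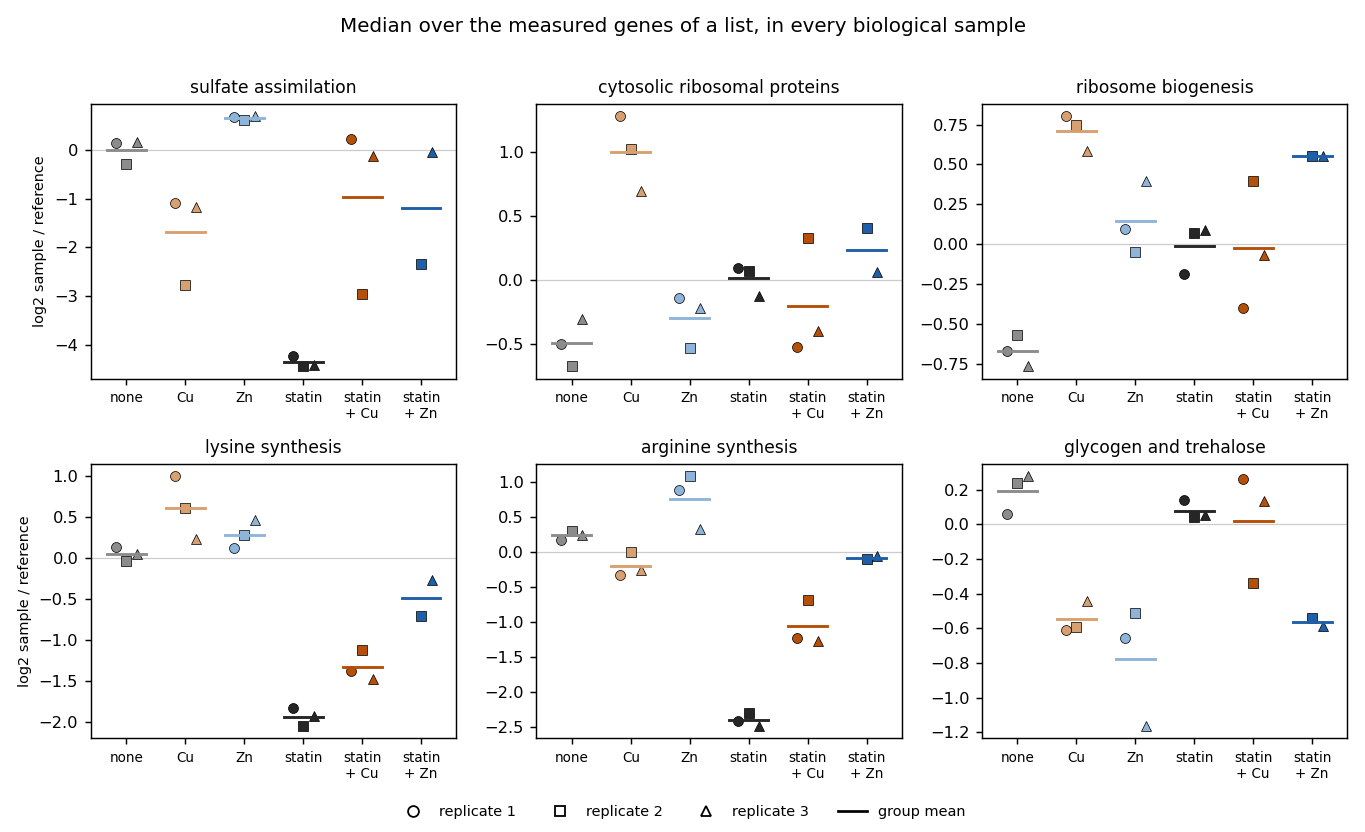
Median log2 ratio of sample over pooled reference (y axis) over the genes of 6 lists (sulfate assimilation, ribosomal proteins, ribosome biogenesis, lysine, arginine, and glycogen and trehalose) in all 6 groups (x axis), one marker per biological sample with its shape giving the replicate number. With statin, sulfate assimilation separates replicate 2 (-2.96 with copper and -2.35 with zinc) from the other metal samples, whereas the arginine and lysine medians of the copper samples lie below those of both zinc samples.

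Sterol genes, the route the statin blocks, were close between the metals. HMG1 and HMG2, the HMG-CoA reductases, differed by 0.09 (95% interval -0.11 to 0.29) and 0.14 (-0.09 to 0.37). In the ergosterol branch, ERG11, lanosterol demethylase, differed by 0.06 (-0.39 to 0.50), ERG25, a C-4 methyl oxidase, by 0.15 (-0.17 to 0.48) and ERG3, the C-5 desaturase, by -0.09 (-0.46 to 0.28). UPC2, the sterol-sensing activator, differed by -0.17 (-0.64 to 0.29). The sterol importers AUS1 and PDR11 differed by -0.31 (-0.62 to 0.00) and -0.26 (-0.59 to 0.07).

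Differences within these bounds were not detectable with 3 and 2 cultures. The mevalonate list had 0 of 9 genes called by limma (0 at an unadjusted p under 0.05, median 0.07) and the ergosterol list 0 of 15 (0 at that level, median 0.00). Sterol uptake and anaerobic wall genes had 0 of 12 called (3 at that level, median -0.13), and hypoxic genes 0 of 7 (0 at that level, median 0.03). The cell wall integrity list had 0 of 16 (2 at that level, median 0.10) and the phosphate list 0 of 14 (0 at that level, median 0.13).

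The branched-chain amino acid gene LEU1, an iron-sulfur isomerase of leucine synthesis, was high with both metals. Its ratios were 0.12, 0.82 and 0.55 with copper, 0.69 and 1.17 with zinc and -4.49, -3.86 and -4.04 with the statin alone. The metal groups overlapped, with a difference of -0.44 (95% interval -1.06 to 0.19), and the values against the shared statin cultures were 4.63 with copper and 5.06 with zinc. LEU9, an isopropylmalate synthase, and ILV2, acetolactate synthase, differed by -0.89 and -0.75 (adjusted p = 0.18 for ILV2). Of 10 genes of the list 0 were called (5 at an unadjusted p under 0.05), all 10 lay below 0 and the median was -0.48. Without statin with CuSO4 replicate 2, 5 were called lower, against 6.19% of all genes.

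For 2 of the 5 biotin genes the copper samples lay below both zinc samples, against 12.2% of all genes. BIO2, biotin synthase, had ratios of -0.88, -1.43 and -0.78 with copper and -1.25 and 0.21 with zinc, a difference of -0.51 (95% interval -1.18 to 0.16). BIO3, an aminotransferase of the pathway, and BIO5, a precursor transporter, differed by -0.35 and -0.54. Of 5 genes 0 were called (1 at an unadjusted p under 0.05), with a median of -0.51. Zinc replicate 3 decided that direction, since the median was 0.02 without it and -0.86 without zinc replicate 2, and it was -0.18 and -0.84 within slides.

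The difference between the metals was then compared with that in cultures without statin, which shares no sample with it. Statin, culture density and pretreatment differ together between these settings and cannot be told apart. Without statin 879 genes were called between copper and zinc (15.7%), 506 higher (9.03%) and 373 lower (6.65%). Over all 5606 genes, the copper minus zinc values with and without statin correlated at r = -0.092, so they did not go together across the genome. Of the 27 genes called with statin, 17 were called in the same direction without it, which is 63% of the 27 and 1.93% of the 879. A further 2, AQR1 among them, were called in the opposite direction, and 8 (ARG3, LYS1, LYS20, LYS21, MAE1, PDR12, PUS1 and TOS8) were not called without statin.

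The difference of differences, the copper minus zinc value with statin minus that without, was called for 557 genes (9.94%), 132 on the higher side (2.35%) and 425 on the lower side (7.58%). CUP1-1 differed by 4.35 with statin and 4.76 without (difference -0.40, adjusted p = 0.64). ZRT1 differed by 3.03 with statin and 4.97 without, and this difference of -1.95 was called (adjusted p = 0.0023), whereas ZRT2 (0.50, adjusted p = 0.22) and ZAP1 (-0.57, adjusted p = 0.24) did not pass. ZPS1 had ratios of 1.53, 1.15 and 0.76 with copper and -1.34, -1.85 and -1.52 with zinc when no statin was given, a copper minus zinc value of 2.72. With statin that value was 0.09, and the difference between the settings was -2.63 (adjusted p = 0.0012). ADH4 likewise differed by 1.15 without statin and 0.02 with it (-1.12, adjusted p = 0.0051).

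The lysine genes differed between the settings, and for the arginine genes the test depended on the slide block. All 7 lysine genes had a called difference of differences on the lower side (7.58% of all genes). The same held with the slide as a block (566 of all 5606 genes). The lysine median was -0.95 with statin and 0.35 without, where 1 was called higher (9.03% of all genes). LYS20 differed by -1.84 with statin and 0.07 without (difference -1.91, adjusted p = 0.0081). For the arginine genes the medians were -1.02 and -1.01, and 0 of 8 had a called difference of differences. With the slide as a block 3 of 8 were called, against 827 of all 5606 genes. ARG3 and ARG8 were on the lower side (adjusted p = 0.027 and 0.042) and ARG4 on the higher side (adjusted p = 0.0495). With the block and statin with CuSO4 replicate 1 left out, 0 were called. The cultures without statin kept all their slides in that fit. ARG3 differed by -1.87 with statin and -0.74 without (difference -1.13, adjusted p = 0.085 without the block). AQR1 turned direction, with -0.86 with statin and 0.55 without (difference -1.42, adjusted p = 0.0041).

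Ribosomal protein genes were higher with copper than with zinc in the absence of statin. Their list medians were 1.28, 1.02 and 0.70 with copper and -0.14, -0.53 and -0.22 with zinc. Of 137 genes 130 were called higher (9.03% of all genes), with a median difference of 1.29. With statin the median difference was -0.41. The difference of differences was called on the lower side for 124 of 137 genes (7.58% of all genes). With the slide as a block and statin with CuSO4 replicate 1 left out, 117 were called lower (402 of all 5606 genes). The cultures without statin kept all their slides in that fit. Ribosome biogenesis genes had 30 of 34 called on the lower side without the block (7.58% of all genes).

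Sulfate assimilation genes had list medians of -1.10, -2.78 and -1.17 with copper and 0.66, 0.61 and 0.68 with zinc when no statin was given. Of the 10 genes 6 were called lower (6.65% of all genes), with a median difference of -2.40. Copper replicate 2 was the lowest there as well. With statin the metal groups overlapped, and the difference of differences was called for 1 gene, SUL1 (-5.96 without statin, difference 6.90, adjusted p = 0.010), a call lost without zinc replicate 2. With the slide as a block 3 of the 10 were called, all on the higher side (261 of all 5606 genes). YCT1 differed by -4.62 without statin, and its difference of differences was 5.80 (adjusted p = 0.0059). That value was 4.74 with the block and statin with CuSO4 replicate 1 left out. Of the siderophore list 2 genes, ARN1 (1.28, adjusted p = 0.013) and ARN2 (1.47, adjusted p = 0.0081), were on the higher side (2.35% of all genes).

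**Figure D5:**
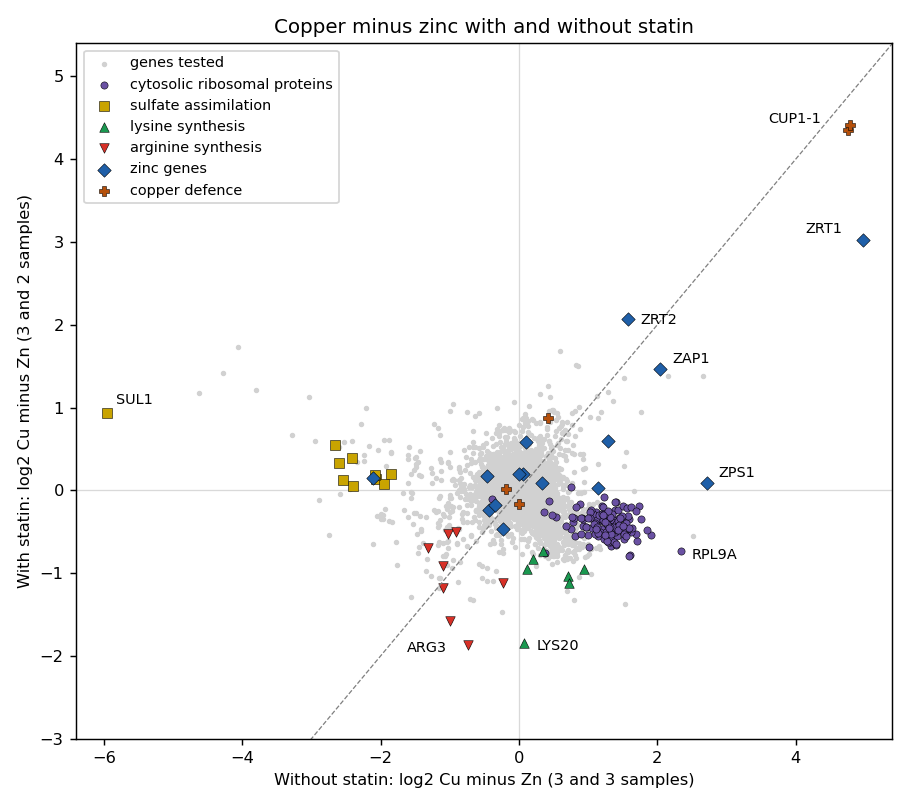
Copper minus zinc without statin (x axis, log2) against copper minus zinc with statin (y axis, log2), one point per gene tested, with metal, lysine, arginine, ribosomal protein and sulfate assimilation genes coloured by list. CUP1-1 lies at 4.76 and 4.35, 136 of 137 ribosomal protein genes lie to the right of 0 on the x axis and around -0.41 on the y axis, and ZPS1 lies at 2.72 and 0.09.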

How the data were processed

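Total RNA of each culture (Cy3) was hybridised with the pooled reference (Cy5) on 2-colour Agilent arrays, with no dye swap, so dye bias is common to all arrays. Spot values were extracted by the authors with Agilent Feature Extraction 10.5.1.1 on a design annotated to sacCer1, per the submitters' processing notes and the file headers. The deposited files hold, per the file headers, the median intensity and local background intensity of each spot and channel on the scanner's scale, a processed intensity after background subtraction and dye normalization, and a log10 ratio of red over green. The authors' deposited table holds the same log10 ratio with its sign turned, to within 5.0e-06, with column medians of 0 to 0.00326.

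From the median intensities, background was corrected with normexp (offset 50), each array was loess-normalized with control spots (536 of 12512) at weight 0, spots marked as outliers were dropped, and log2 ratios of sample over reference were averaged over the 2 spots of a probe and then over arrays of one sample. Of 6256 genes, 5606 were tested because both spots were well above background on every array of at least 1 group, and 6 values were missing. No spot was saturated. Names came from the files and from a RefSeq table of assembly R64 (5756 probes matched, 500 kept the file's name). Near-identical genes can share a probe's signal. No sequences or coordinates are given, and some single-gene results are not reported here.

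The 17 samples of all 6 groups were fitted together with limma 3.58.1 in R 4.3.3 (files read with the data.table package, version 1.17.8). The fit had 11 residual degrees of freedom, two-sided tests and Benjamini-Hochberg adjustment over all genes tested. Intervals are at 95%, and the number of cultures limits their precision. The script was tested on simulated data. Samples, lists and tests were chosen with earlier results of these data known. Genes were named by a rule: those called with and without statin with CuSO4 replicate 2 and largest in each direction, the largest of each list, a preset set of pathway genes, the largest differences of differences, the strain checks, and members of lists with few calls. Lists are described by counts and medians without a set test. The barcode of a slide was empty in the file headers, so slides were told apart by the remaining header fields. By these each replicate number had its own slide, so the replicate block and the slide block are one. Deviations of same-numbered copper and zinc samples from their group means correlated at r = 0.688 and 0.653 over genes (2 pairs). The deviations of the 2 zinc samples mirror each other, so the 2 values are not independent. Alternatives were the slide block, fewer samples, other background and dye corrections, other filters and single technical arrays.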

Additional observations from a re-analysis of the deposited data

Results flagged for a closer look

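The copper minus zinc difference with statin differed from that without statin, by limma's test of the difference itself, for 33 of the named genes. Over all 5606 genes tested, 557 were called (9.94%). Some genes were named because this value was among the largest called, so the count of 33 partly follows from the naming rule. The values below are log2 differences of differences (with statin minus without), and statin, culture density and pretreatment differ together between the settings and cannot be told apart.

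On the lower side were ribosomal protein genes (RPL9A -3.08, RPL14A -2.45, RPS26B -2.39 and RPL24A -1.94) and the nucleolar gene NSR1 (-1.91). The amino acid permease genes TAT1 (-3.06) and GNP1 (-2.91) and the exporter gene AQR1 (-1.42) were on that side as well. All 7 lysine genes were there, with LYS20 at -1.91, LYS12 at -1.88, LYS9 at -1.84, LYS4 at -1.75, LYS2 and LYS1 at -1.07 and LYS21 at -1.04, together with MAE1 (-1.23). Among zinc-regulated genes these were ZPS1 (-2.63), ZRT1 (-1.95), ADH4 (-1.12) and ZRT3 (-0.69).

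On the higher side were the sulfur uptake and scavenging genes SUL1 (6.90), YCT1 (5.80) and JLP1 (5.70). The pyruvate decarboxylase gene PDC6 (5.80) and the permease genes SEO1 (5.03) and AGP3 (4.17) were there too. Biotin genes followed with BIO5 (2.22) and BIO3 (1.62), and iron uptake genes with FRE5 (1.64), ARN2 (1.47) and ARN1 (1.28). TOS8 (0.88) and PBI1 (0.75) had the smallest values on that side. Without statin with ZnSO4 replicate 2 the calls of SUL1, PDC6, JLP1, SEO1, AGP3, TAT1, BIO3 and ARN1 were lost, and without its replicate 3 those of LYS1, LYS2, LYS9, LYS21 and ARN1. MAE1, TOS8, ZRT3, PBI1 and GNP1 were called under 11, 9, 12, 12 and 14 of 22 settings. Sulfur gene levels also went with the replicate number in both metals, and the part of this in the differences was not tested.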

How the results depend on the processing

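The 27 genes called between the metals kept their direction under every alternative in which they were tested. A strict filter on dim probes left some of the 27 untested. CUP1-1, CUP1-2, ZRT1 and ZRT2 were called under all 16 settings. With only the copper and zinc samples in the fit, 4 genes were called higher and 0 lower, and the difference of differences called 303. Leaving out 1 sample at a time gave 5 to 220 genes higher, 2 to 347 lower and 127 to 1033 for the difference of differences, the fewest of the last without statin with ZnSO4 replicate 2 and the most without statin with CuSO4 replicate 2. Without statin with CuSO4 replicate 1 or 3, or ZnSO4 replicate 2 or 3, 7, 10, 9 and 5 of the 27 genes stayed called. The replicate block (slide) called 13 higher and 21 lower, and 827 genes for the difference of differences, against 557, of which 551 were shared. The block without statin with CuSO4 replicate 2 called 284 higher, 395 lower and 1323. Median centring in place of loess called 14 higher and 10 lower (58.3% higher against 48.1%). Other background, dye and filter settings and single technical arrays called 11 to 14 higher and 12 to 15 lower. Over 101 named genes no called value reversed, 131 values lost and 77 gained a call, and 55 uncalled values of 21 genes changed sign. The cause of these shifts was not tested. Replicates of 2 and 3 cultures limit the calls, and the third slide's lower share of spots above background limits dim genes.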
